A study of Mus musculus with 16 samples.

Results

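Hearts of mice lacking Clpp were compared with wild-type hearts, 4 RNA libraries against 4, for all 15255 genes that passed a low-count filter, out of 36499 entries in the deposited count table. The 8 libraries are part of a set of 16 that also covers Fgf21 knockout and double knockout hearts. The Clpp KO mice carried a whole-body deletion, made by crossing floxed Clpp mice to a line with Cre recombinase under the β-actin promoter and then breeding heterozygotes together, and the WT group is labelled as wild type. The double KO mice lacked Clpp and Fgf21 after the same β-actin Cre was crossed to mice floxed at both genes, and the Fgf21 KO group lacked Fgf21 alone. The making of that single knockout line is not described in the sources used here. All mice were fed normal chow. The labels give neither age nor sex, and do not say that each library is a separate animal. A p-value here therefore covers differences between these libraries, and some of that may be technical. Because the deletion was made in every tissue, a difference in the heart may start in cardiomyocytes, in other cells of the heart or elsewhere in the body, and these cannot be told apart. The comparison of double KO with Fgf21 KO asks for the effect of Clpp loss in 8 other libraries, none shared with Clpp KO against WT, and is given beside the main values.

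CLPP is the peptidase subunit of ClpXP, a protease complex of the mitochondrial matrix in which the CLPX ring unfolds proteins and feeds them into the CLPP chamber. Mitochondrial faults of many kinds can activate the integrated stress response, in which phosphorylated eIF2α favours translation of ATF4 and related factors, and these switch on genes for amino acid synthesis, tRNA charging and one-carbon metabolism. Mitochondrial nucleic acids that reach the cytosol can be read by RNA and DNA sensors, which leads to type I interferon, signalling from its receptor to the nucleus, and a large set of antiviral genes.

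Clpp itself (ENSMUSG00000002660, chr17:56990305-56996188 of GRCm38) was measured first. Its level was 7.61, 8.57, 8.63 and 9.68 CPM in Clpp KO, against 31.7, 28.9, 30.8 and 43.2 CPM in WT. CPM here is the usual depth-scaled count after TMM, the trimmed mean of M-values, which corrects library totals for a few very abundant RNAs. Every Clpp KO library lay under every WT library, and the log2 fold change was −1.96 ± 0.16 (SE, n = 4 each; edgeR quasi-likelihood test with Benjamini-Hochberg adjustment over all genes tested, adjusted p = 5.82e-06). Between 308 and 355 Clpp counts remained in each Clpp KO library. None of the 60 tested genes within 5 Mb on either side of Clpp was called, against 1.63% of all genes tested, a share at which few calls would be found among 60 genes.

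The 8 libraries did not form 2 uniform groups. Their totals ran from 36260545 counts to 51820727 counts. Summed markers of ventricular cardiomyocytes, such as Myh6 and Myl2, stood at 27800 to 33200 CPM in Clpp KO and at 19900 to 33000 CPM in WT, so the ventricle markers expected of cardiac tissue were present in all. WT replicates 2 and 4 stood apart. Summed atrial markers were 487 to 4140 CPM in Clpp KO, 11200 and 7380 CPM in these WT replicates, and 396 and 377 CPM in WT replicates 1 and 3. White adipocyte markers followed the same split, with 37.4 to 61.9 CPM in Clpp KO, 115 and 285 CPM in WT replicates 2 and 4 and 37.2 and 37.7 CPM in WT replicates 1 and 3. Summed Y-linked genes were 62.5 to 81.1 CPM in Clpp KO, against 2.29 CPM in WT replicate 2, 35.3 CPM in WT replicate 4 and 60.8 and 63.1 CPM in the other WT replicates. The labels give neither sex nor the part of the heart taken, and whether either differed between WT replicates 2 and 4 and the other libraries was not tested. WT replicates 1 and 3 were the closest pair (rank correlation 0.997, against 0.948 to 0.975 between the other WT pairs). Their counts still differed by more than sampling noise (median ratio of chi-square to its expectation 1.85, against 2.57 to 5.23 between Clpp KO libraries). That ratio cannot show that they come from different hearts, because repeat preparations of 1 heart can also differ by more than sampling noise. Each was entered in the fits on its own, and results without WT replicates 2 and 4 rest on this pair alone. Summed markers of endothelium (723 to 928 CPM in Clpp KO, 1040 to 1240 in WT), smooth muscle and pericytes (634 to 711 in Clpp KO, 815 to 1420 in WT) and red blood cells (908 to 1820 in Clpp KO, 2500 to 7320 in WT) were lower in every Clpp KO library than in any WT library. Gene by gene, 3 of 12 endothelial, 2 of 10 smooth muscle and pericyte and 8 of 8 red blood cell markers were lower without overlap. Over all genes tested that share was 5.93%. The endothelial and smooth muscle sums therefore do not stand for each of their markers. In bulk tissue, fewer cells of a type and less RNA per cell cannot be told apart.

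**Figure D1:**
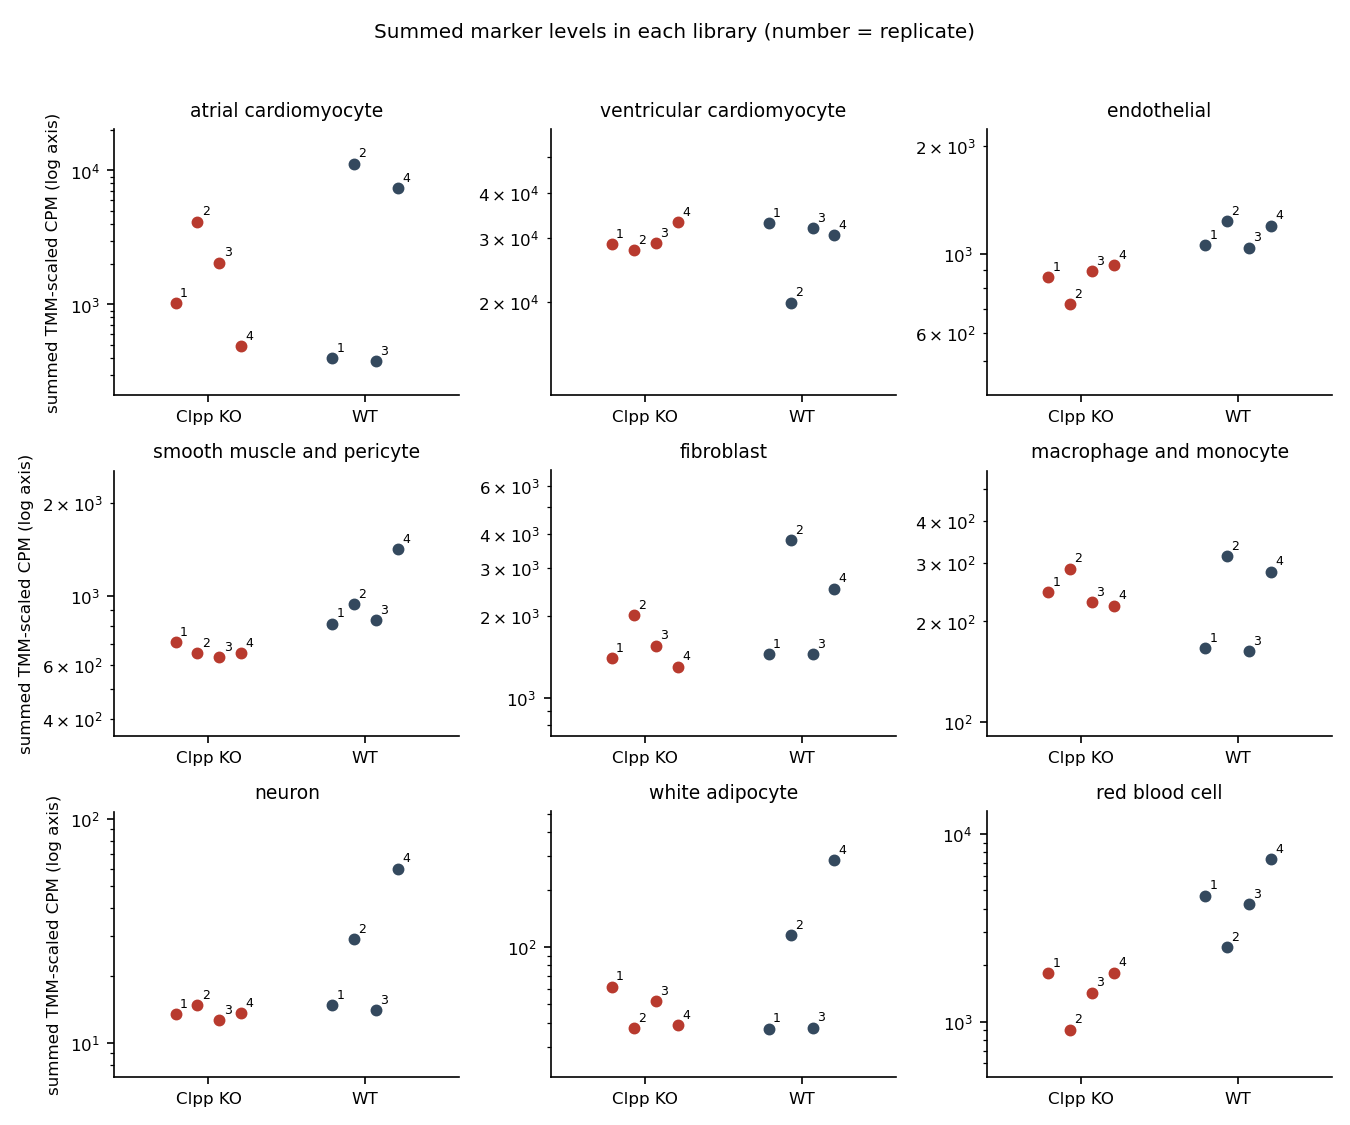
Summed TMM-scaled CPM of the markers of 9 cell types (vertical log axes) in each Clpp KO library and each WT library, with the replicate number beside each dot. WT replicates 2 and 4 carry the highest atrial (11200 and 7380 CPM) and white adipocyte sums (115 and 285 CPM), while endothelial, smooth muscle and red blood cell sums are lower in all 4 Clpp KO libraries than in any WT library.

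In Clpp KO against WT 249 genes were called, meaning an adjusted p under 0.05, which is 1.63% of the genes tested. Of these, 165 were higher (1.08%) and 84 lower (0.551%) in Clpp KO. In all 249 the 4 Clpp KO values did not overlap the 4 WT values, against 13.7% of all genes tested (7.75% with Clpp KO higher and 5.93% with Clpp KO lower). Scaling by library totals alone gave 95 genes higher and 11838 lower, with the median of all genes at −0.79 on the log2 scale in place of −0.04. On that scale the medians of the antiviral effectors, the interferon-induced GTPases and the mitochondrial mRNAs described below were 0.09, 0.12 and 0.86, while those of interferon signalling, sensors, MHC class I, the stress response, the amino acid and folate enzymes, the cytosolic synthetases, the amino acid transporters and the NRF2 targets lay between −0.59 and −0.17, above the median of all genes. Fold changes below are on the TMM scale. The count of calls moved with single libraries. It was 504 without WT replicate 1, 175 without WT replicate 2, 949 without WT replicate 3 and 138 without WT replicate 4, and between 114 and 134 without any one of the Clpp KO replicates. Without WT replicates 2 and 4 together it was 159 (132 higher, 27 lower). A set of 84 genes, 79 higher and 5 lower, was called in all 8 fits that left out a single library and also without WT replicates 2 and 4, and they are called stable below. The fit without WT replicates 2 and 4 has only WT replicates 1 and 3 on the WT side, which are not shown to be different hearts.

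In double KO against Fgf21 KO 136 genes were called (0.892%), 126 higher (0.826%) and 10 lower (0.0656%). The calls common to both comparisons, in the same direction, numbered 93, which is 37.3% of the calls in Clpp KO against WT and 68.4% of those in double KO against Fgf21 KO. Of the 165 genes that rose in Clpp KO, 163 had a positive log2 fold change in double KO against Fgf21 KO and 88 were called there, and the median was 1.29 in Clpp KO against WT and 1.20 in double KO against Fgf21 KO. Of the 84 genes that fell, 79 had a negative value and 5 were called, and the medians were −0.82 and −0.38. No gene passed the test of the difference between the 2 comparisons in edgeR, where 299 genes had an unadjusted p under 0.05, and DESeq2 called 3. A gene called in 1 comparison and not in the other is therefore not shown to differ between them.

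**Figure D2:**
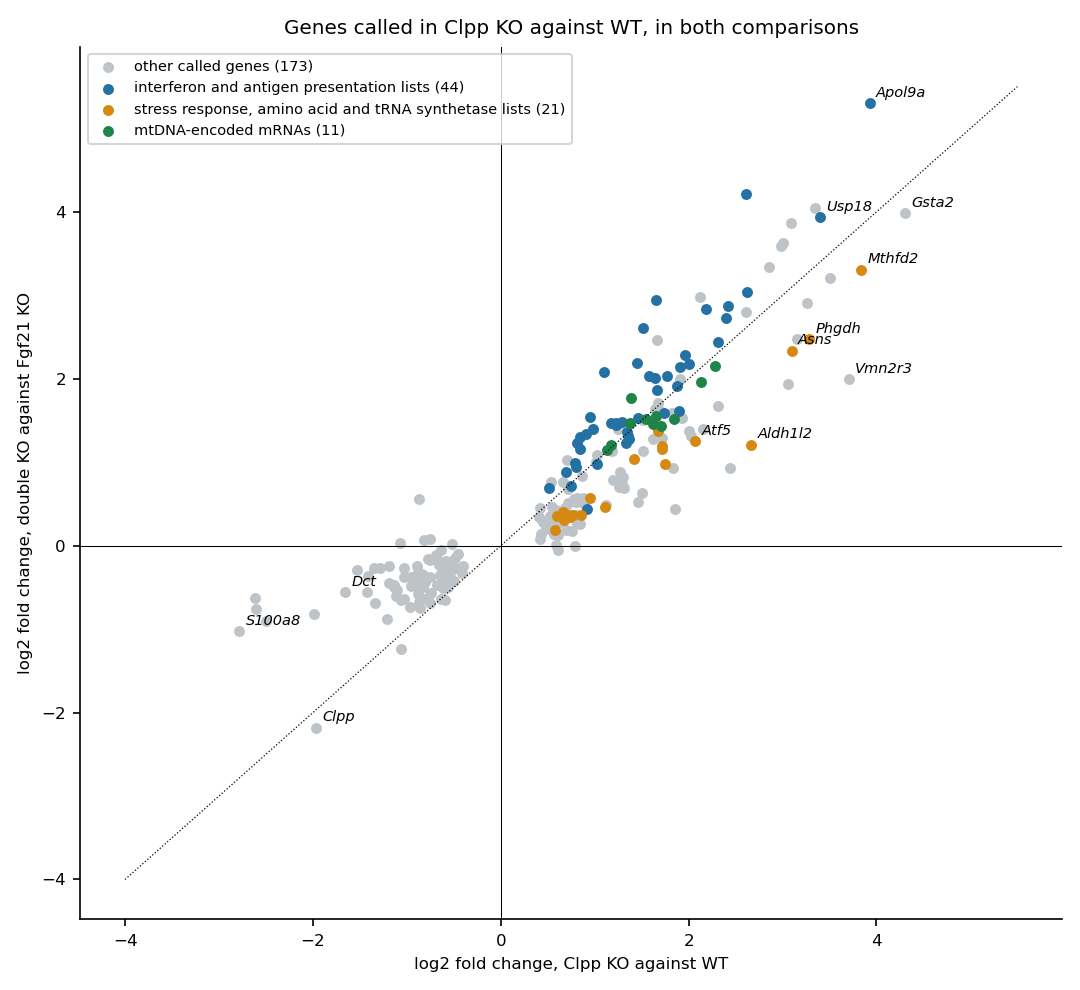
Log2 fold change of the 249 genes called in Clpp KO against WT (horizontal axis) and the log2 fold change of the same genes in double KO against Fgf21 KO (vertical axis), with 1 dot per gene and the dotted line marking equal values. Nearly all genes that rose in Clpp KO lie above 0 on the vertical axis (163 of 165), while the genes that fell lie nearer to 0 on the vertical axis, with a median of −0.38 against −0.82.

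Interferon-stimulated genes made up the broadest group of rises. Usp18 (chr6:121245906-121270917), a protease that removes the ubiquitin-like ISG15 and dampens interferon receptor signalling, stood at 34.9, 26.7, 28.6 and 30.2 CPM in Clpp KO, against 2.69, 3.31, 2.78 and 2.64 CPM in WT. All 4 Clpp KO libraries were far above all WT libraries, the fold change was 10.5, and Usp18 had the smallest p of all genes tested (log2 fold change 3.40 ± 0.17, edgeR adjusted p = 1.09e-08). Ifit1 (chr19:34640871-34650009), which binds foreign 5′ ends of RNA and blocks their translation, reached 27.0, 17.3, 18.4 and 18.5 CPM in Clpp KO, against 2.95, 4.11, 3.22 and 2.87 CPM in WT. The groups did not overlap (log2 fold change 2.62 ± 0.18, edgeR adjusted p = 9.76e-07), and Clpp KO replicate 1 was the highest of the 8.

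Among 40 tested antiviral effectors induced by interferon, 21 rose and none fell, and 38 had a positive log2 fold change. The median log2 fold change of this list was 0.90, against −0.04 over all genes, and 1.17 without WT replicates 2 and 4. In double KO against Fgf21 KO 33 of the 40 were called higher, with a median of 1.26. The members that rose covered several families. The tetratricopeptide proteins Ifit2 (1.88 ± 0.22), Ifit3 (2.40 ± 0.22) and Ifit3b (2.42 ± 0.25) rose beside Ifit1, although Ifit3 and Ifit3b share 61.8% and 55.3% of their 31-base sequences with other genes, chiefly each other, and cannot be told apart well. The dynamin-like GTPases Mx1 (2.01 ± 0.35) and Mx2 (1.47 ± 0.25), which block viral nucleocapsids, rose, as did the 2′-5′ oligoadenylate synthetases Oas1g (1.64 ± 0.26) and Oas3 (1.45 ± 0.29) and the related Oasl1 (2.31 ± 0.19). Of the 31-base sequences of Oas1g 55.1% occur in other genes, 54.6% in Oas1a, so its separate level is uncertain. Oas3 lost its call without Clpp KO replicate 1 (edgeR adjusted p = 0.0622). Rsad2, the radical enzyme viperin, rose by 1.33 ± 0.19, and Lgals3bp, a secreted glycoprotein, by 1.58 ± 0.14. Apol9a, an apolipoprotein L relative, had the largest fold change of the list. It stood at 6.04, 4.41, 3.52 and 4.12 CPM in Clpp KO, against 0.128, 0.604, 0.119 and 0.307 CPM in WT, again without overlap (3.93 ± 0.52). The members that did not pass included Ifitm3 (−0.34, edgeR adjusted p = 0.403), which hinders viral entry, and the RNA editing enzyme Adar (0.09, edgeR adjusted p = 0.755).

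Of 19 tested genes of interferon signalling and feedback, 5 rose, among them Usp18, Irf7, Jak1 and Dtx3l, and none fell. The median was 0.31, and 7 were called in double KO against Fgf21 KO (median 0.44). Irf7, the factor that amplifies interferon production, was at 56.7, 34.1, 37.0 and 45.9 CPM in Clpp KO, against 7.55, 12.5, 8.04 and 10.2 CPM in WT (log2 fold change 2.18 ± 0.18, edgeR adjusted p = 5.82e-06). The lowest Clpp KO library held more Irf7 than the highest WT library. The receptor subunits Ifnar1 (−0.01) and Ifnar2 (−0.13) and the transcription factors Stat2 (0.31) and Irf9 (0.42) were not called (edgeR adjusted p between 0.121 and 0.957). The kinase Jak1 rose by 0.92 ± 0.20 and the ubiquitin ligase Dtx3l by 0.74 ± 0.16. Jak1 lost its call without WT replicate 4 and without any of the Clpp KO replicates (edgeR adjusted p between 0.062 and 0.0875), and Dtx3l without WT replicate 2 or 4 or Clpp KO replicate 1, 3 or 4 (between 0.0672 and 0.112).

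Of 16 cytosolic sensors of nucleic acids and their adaptors 4 rose and none fell. The 4 bind RNA or act with RNA sensors: Ddx60 (1.96 ± 0.26), Ifih1, which encodes MDA5 (1.22 ± 0.18), Ddx58, which encodes RIG-I (0.80 ± 0.15), and Eif2ak2, which encodes the kinase PKR (1.02 ± 0.13). All are stable and are themselves interferon-induced. Ifih1 was at 13.3, 10.7, 10.1 and 10.6 CPM in Clpp KO, against 4.82, 5.83, 5.31 and 3.14 CPM in WT, with no overlap. The DNA sensor Cgas (0.08, edgeR adjusted p = 0.871), its adaptor STING (Tmem173, −0.56, edgeR adjusted p = 0.241), Aim2 (0.26, edgeR adjusted p = 0.592) and the mitochondrial adaptor Mavs (0.08, edgeR adjusted p = 0.827) were not called. The median of the sensors was 0.29, and 5 were called in double KO against Fgf21 KO. Outside this list, the Aim2 relatives Ifi206, Ifi208 and Ifi213, the DNA receptor Tlr9 and the sensor Zbp1 also rose, and Ifi206 is stable. Ifi206, Ifi208 and Ifi213 share 36.4%, 34.6% and 26.6% of their 31-base sequences with other genes. The list therefore does not show that RNA sensors rose and DNA sensors did not.

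Of 14 GTPases that act on vacuoles of intracellular pathogens 7 rose, all 14 had a positive log2 fold change, and the median was 0.88. Irgm1, a regulator of the immunity-related GTPases, was at 41.2, 29.7, 24.8 and 32.7 CPM in Clpp KO, against 14.2, 12.3, 12.8 and 10.9 CPM in WT (1.35 ± 0.16, edgeR adjusted p = 0.000281). Every Clpp KO value exceeded every WT value by a clear margin. Its relatives Irgm2 (1.77 ± 0.27), Igtp (1.91 ± 0.30) and Iigp1 (1.89 ± 0.26) rose, and so did the guanylate-binding proteins Gbp3 (0.85 ± 0.16), Gbp6 (1.74 ± 0.41) and Gbp7 (1.34 ± 0.22). Igtp was not called without WT replicates 2 and 4 (log2 fold change 1.81, edgeR adjusted p = 0.0789), and Gbp3 not without Clpp KO replicate 1 (edgeR adjusted p = 0.0543). Gbp6 kept its call without WT replicate 1 or 3 and lost it without any other single library (edgeR adjusted p between 0.0755 and 0.148), and 74.3% of its 31-base sequences occur in other genes.

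Of 18 genes of MHC class I antigen presentation 7 rose, with a median of 0.49 and with 9 called in double KO against Fgf21 KO (median 0.79). The light chain B2m was at 288.7, 228.3, 245.1 and 307.1 CPM in Clpp KO, against 123.7, 169.8, 125.1 and 133.7 CPM in WT (0.95 ± 0.16, edgeR adjusted p = 0.00401), with a gap between the groups. The peptide transporter subunit Tap1 rose by 0.85 ± 0.16 and the class I transactivator Nlrc5 by 1.17 ± 0.21. The heavy chains H2-K1 (0.81 ± 0.16), H2-T22 (0.91 ± 0.15), H2-Q6 (1.22 ± 0.26) and H2-Q7 (1.29 ± 0.26) also rose, although class I genes share much sequence (67.4% of 31-base sequences for H2-T22) and their counts may be split between them. H2-K1 lost its call without Clpp KO replicate 4 (edgeR adjusted p = 0.0552), H2-Q7 without WT replicate 4 or Clpp KO replicate 1 or 4 (between 0.0535 and 0.0753), and H2-Q6 in 5 such fits, those without WT replicate 2 or 4 or Clpp KO replicate 1, 3 or 4 (between 0.0582 and 0.0876). The immunoproteasome subunits Psmb8 (0.48), Psmb9 (0.46) and Psmb10 (0.31) were not called (edgeR adjusted p between 0.122 and 0.335). Outside the lists, and named after their values were seen, the chemokine Cxcl10 (2.61), the macrophage lectin Siglec1 (1.91) and the checkpoint ligand Cd274 (1.18) rose. Macrophage and monocyte markers, beside these rises, summed to 223 to 288 CPM in Clpp KO, 166 and 163 CPM in WT replicates 1 and 3, and 315 and 282 CPM in WT replicates 2 and 4. None of 14 such markers was called (median 0.16, and 0.64 without WT replicates 2 and 4, where 1 was called higher). The T and NK cell markers summed to between 2.51 and 4.52 CPM in Clpp KO and between 2.43 and 5.96 CPM in WT. The part of immune cells in the interferon-related rises was not tested.

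**Figure D3:**
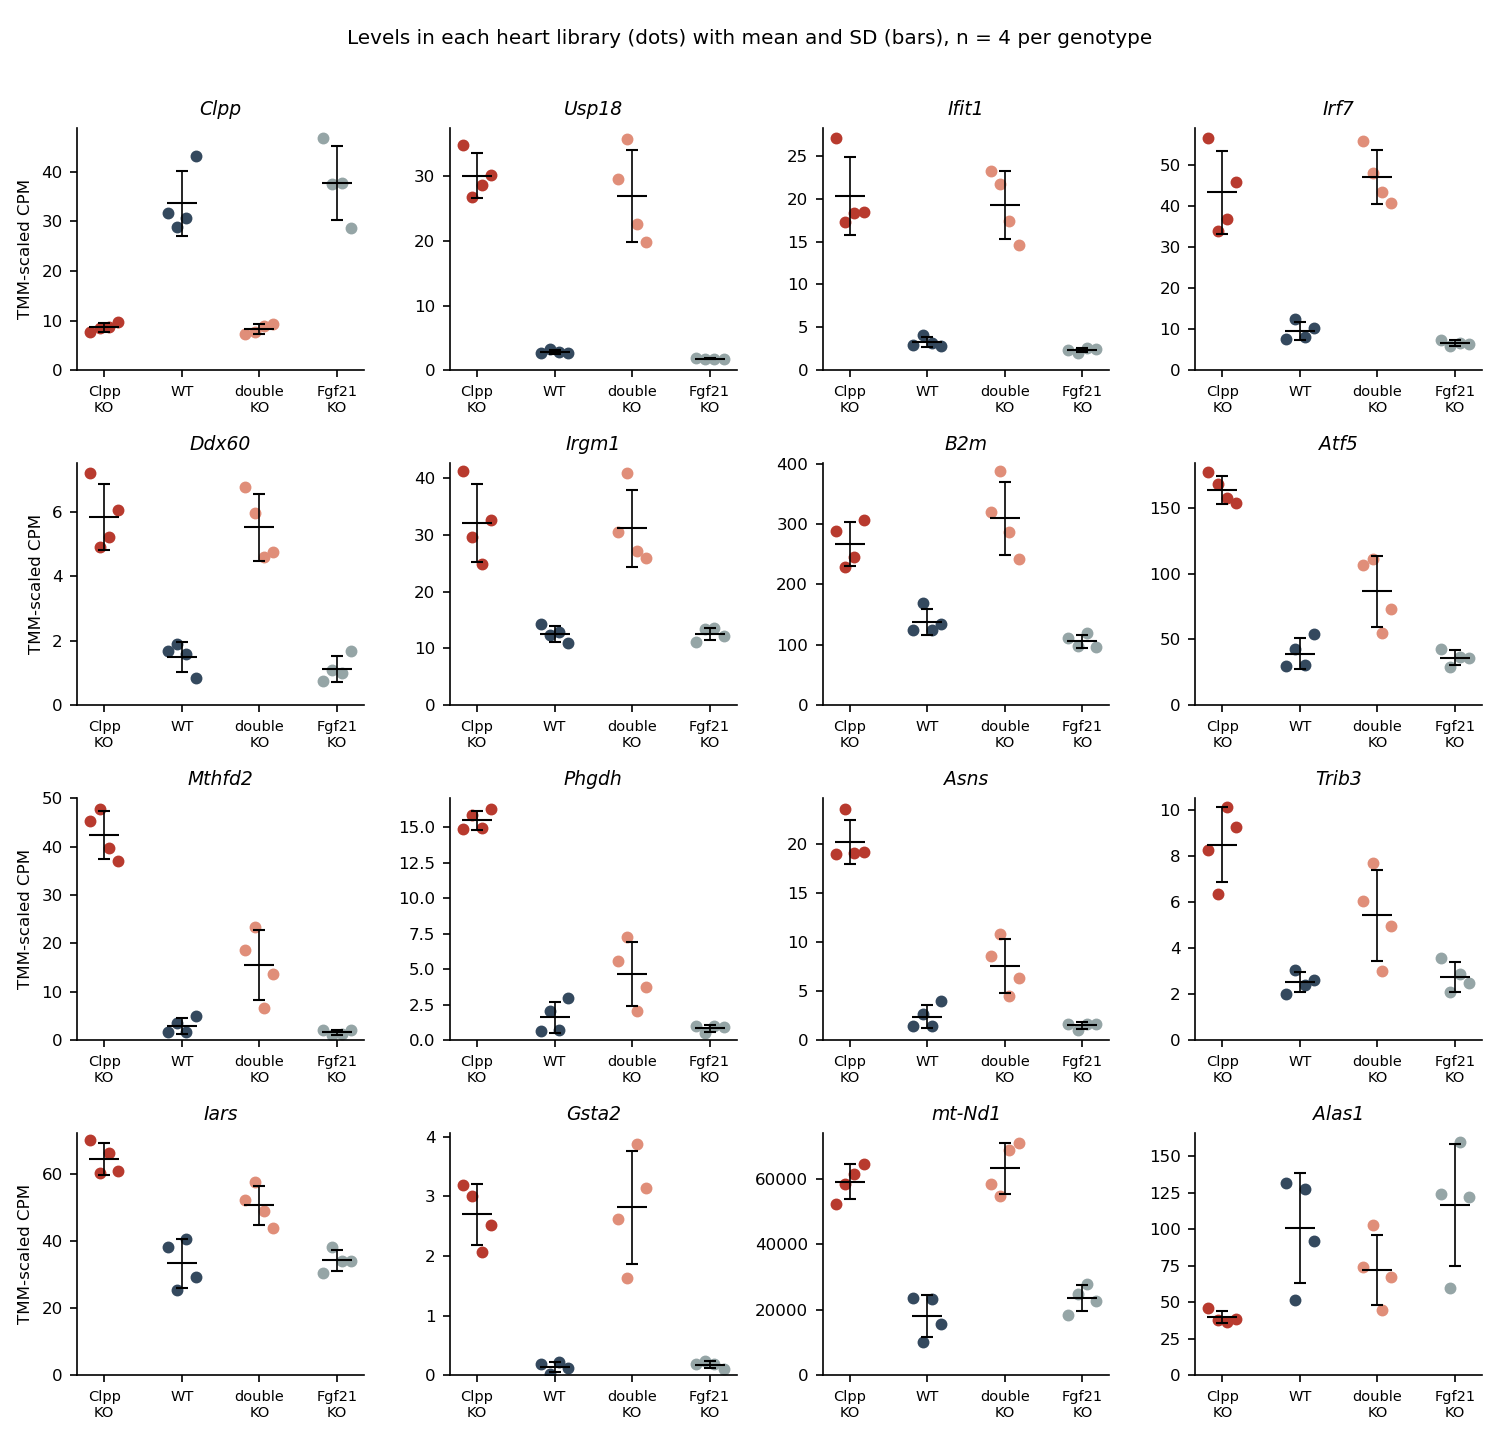
TMM-scaled CPM of 16 genes (vertical axes, from 0) in Clpp KO, WT, double KO and Fgf21 KO, with 1 dot per library and bars for the mean and SD over 4 libraries. Usp18, Ifit1, Irf7, Irgm1 and B2m are high in both groups that lack Clpp, while Mthfd2, Phgdh and Asns are highest in Clpp KO and lower in double KO.

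Promoters of the risen genes were searched for 3 motifs, because genes that rise together can share binding sites. The windows are RefSeq sequence of GRCm38.p6, from 250 bases before to 50 bases after an annotated start, and both strands were read. Windows were found for 110 of the genes that rose, for 56 that fell and for 11373 of the genes tested. The interferon-stimulated response element was searched as a pair of GAAA runs with 2 bases of any kind between them. It occurred in 30 of the 110 risen genes with a window (27.3%), in 1 of the 56 genes that fell (1.79%) and in 3.97% of the genes tested, and in 3.44% of all 32851 windows. All 4 risen sensors and all 5 risen GTPases with a window held it, as did 10 of 16 risen antiviral effectors, 2 of 6 risen MHC class I genes and none of 3 risen genes of interferon signalling. Among all tested members with a window, risen or not, 5 of 13 sensors, 9 of 9 GTPases and 17 of 30 antiviral effectors held it. So did 5 of 16 MHC class I genes and 2 of 16 of interferon signalling. In the GTPases, effectors and MHC class I genes the motif thus hardly set risen members apart from the whole list. A match describes letters in this window and not a bound site. Windows of Ifit1 (chr19:34640639-34640938, + strand), Ddx60 (chr8:61927837-61928136, + strand) and Irgm1 (chr11:48871371-48871670, − strand) are shown 5′ to 3′ because each holds the motif at 2 places, with the matches in capitals.
Ifit1: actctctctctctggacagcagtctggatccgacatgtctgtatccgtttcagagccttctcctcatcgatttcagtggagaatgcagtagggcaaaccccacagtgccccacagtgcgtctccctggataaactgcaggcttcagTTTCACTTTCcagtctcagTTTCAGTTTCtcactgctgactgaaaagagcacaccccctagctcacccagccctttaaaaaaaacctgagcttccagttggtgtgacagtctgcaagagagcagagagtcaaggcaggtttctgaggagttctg
Ddx60: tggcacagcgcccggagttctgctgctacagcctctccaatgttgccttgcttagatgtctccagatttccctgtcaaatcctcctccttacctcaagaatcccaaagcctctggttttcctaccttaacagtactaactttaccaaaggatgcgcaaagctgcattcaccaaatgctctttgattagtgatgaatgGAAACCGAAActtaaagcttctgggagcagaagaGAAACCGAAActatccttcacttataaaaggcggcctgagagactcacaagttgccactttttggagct
Irgm1: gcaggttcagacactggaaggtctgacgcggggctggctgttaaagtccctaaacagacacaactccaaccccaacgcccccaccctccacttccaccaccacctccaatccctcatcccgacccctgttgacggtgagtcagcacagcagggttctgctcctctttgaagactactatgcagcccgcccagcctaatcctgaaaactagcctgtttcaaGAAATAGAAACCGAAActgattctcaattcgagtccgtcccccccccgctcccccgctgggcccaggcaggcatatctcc
In Ifit1 the matches begin 104 and 85 bases before the start and lie on the opposite strand. Those of Ddx60 begin 53 and 19 bases before it, and those of Irgm1 begin 30 and 24 bases before it and overlap.

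The integrated stress response showed in a few genes with large changes rather than across its whole list. Of 20 factors and targets 3 rose, none fell, and the median was 0.28 (0.51 without WT replicates 2 and 4). Atf5 (chr7:44812256-44816658), a transcription factor of this response that also acts in the mitochondrial unfolded protein response, was at 177.1, 168.0, 157.4 and 153.5 CPM in Clpp KO, against 29.4, 42.4, 30.5 and 54.1 CPM in WT (2.07 ± 0.23, edgeR adjusted p = 0.000111). Clpp KO and WT were separated widely. Double KO held 106.5, 111.4, 55.3 and 72.8 CPM of Atf5, against 42.4, 29.2, 37.0 and 36.2 CPM in Fgf21 KO (1.26, edgeR adjusted p = 0.00656), and was the 1 member of the list called there (median of the list 0.14). Trib3, a pseudokinase that binds ATF4 and AKT, was at 8.25, 6.35, 10.1 and 9.24 CPM in Clpp KO, against 2.02, 3.06, 2.40 and 2.62 CPM in WT (1.75 ± 0.25). Sesn2, a stress-induced inhibitor of mTORC1, rose by 1.11 ± 0.17. In double KO against Fgf21 KO Trib3 (0.98, edgeR adjusted p = 0.0986) and Sesn2 (0.46, edgeR adjusted p = 0.484) were not called. Atf5, Trib3 and Sesn2 are stable.

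Other members of the response stayed within the spread or had it too wide for a call. Atf4 mRNA had a log2 fold change of 0.19 (edgeR adjusted p = 0.616) and Ddit3, which encodes CHOP, of 0.61 (edgeR adjusted p = 0.0785). Chac1, an enzyme that degrades glutathione, had 2.25 (edgeR adjusted p = 0.0703), and Gdf15, a circulating stress signal, had 2.42 (edgeR adjusted p = 0.0636). Of the 4 eIF2 kinases, Eif2ak2 rose, and Eif2ak1 (0.11), Eif2ak3 (0.18) and Eif2ak4 (0.09) were not called. Fgf21, a hormone that this response induces, was under the low-count filter, with 21, 6, 28 and 14 counts in Clpp KO, against 1, 0, 5 and 0 counts in WT. The groups did not overlap (0.356 ± 0.17 CPM in Clpp KO and 0.0312 ± 0.0489 CPM in WT by library totals, mean ± SD, n = 4 each). A two-sided exact permutation test gave p = 0.0286, which is the minimum for 4 against 4. With any WT replicate left out the exact p for Fgf21 was 0.0571, and without WT replicates 2 and 4 it was 0.133.

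Enzymes that make serine, proline, asparagine and mitochondrial one-carbon units included several of the larger rises outside the interferon group. Mthfd2 (chr6:83305691-83325908), a mitochondrial methylenetetrahydrofolate dehydrogenase that adult tissues normally make little of, was at 45.2, 47.8, 39.7 and 37.0 CPM in Clpp KO, against 1.63, 3.61, 1.69 and 4.98 CPM in WT. The groups were far apart, with a fold change of 14.3 (log2 3.84 ± 0.42, edgeR adjusted p = 0.000213). The WT values were not uniform, since WT replicates 2 and 4 held more Mthfd2 than replicates 1 and 3, and without them the log2 fold change was 4.68. Phgdh, the first enzyme of serine synthesis, was at 14.9, 15.8, 14.9 and 16.3 CPM in Clpp KO, against 0.605, 2.08, 0.732 and 2.95 CPM in WT (3.29 ± 0.46, edgeR adjusted p = 0.00137). Of its 31-base sequences 56.3% also occur in other entries, 44.8% in Gm7901, so the level of Phgdh is uncertain. Asns, asparagine synthetase (chr6:7675169-7693254), was at 19.0, 23.6, 19.0 and 19.2 CPM in Clpp KO, against 1.45, 2.63, 1.45 and 3.93 CPM in WT (3.10 ± 0.32, edgeR adjusted p = 7.80e-05). None of these 3 genes overlapped between the groups.

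Further steps of the same routes rose in part. Psat1, the second enzyme of serine synthesis, rose by 1.42 ± 0.22, while Psph, the third, had 0.26 (edgeR adjusted p = 0.257) and Shmt2, which passes the serine carbon to folate in mitochondria, 0.37 (edgeR adjusted p = 0.143). Aldh1l2, which oxidises mitochondrial formyl-folate, was at 21.8, 28.4, 20.97 and 13.5 CPM in Clpp KO, against 3.23, 3.97, 3.76 and 2.34 CPM in WT (2.67 ± 0.37, edgeR adjusted p = 0.00128). Clpp KO replicate 4 was the lowest of its group and still above all WT values. The cytosolic folate enzyme Mthfd1 (0.45, edgeR adjusted p = 0.148) was not called. Aldh18a1 (1.71 ± 0.28) and Pycr1 (1.72 ± 0.28), the first and last enzymes of proline synthesis in mitochondria, rose, while the cytosolic Pycrl (−0.11, edgeR adjusted p = 0.651) was not called. In all, 2 of 7 genes of serine synthesis, 2 of 17 folate enzymes and 3 of 15 enzymes of asparagine, proline and glutamate rose, none fell, and the medians were 0.37, 0.15 and 0.21. All 7 risen enzymes are stable.

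Of these 7 enzymes 4 were also called higher in double KO against Fgf21 KO. Mthfd2 was at 18.5, 23.4, 6.64 and 13.6 CPM in double KO, against 1.99, 0.980, 1.22 and 2.07 CPM in Fgf21 KO (3.31, edgeR adjusted p = 0.000613). Phgdh had 2.48 (edgeR adjusted p = 0.0151), Asns 2.34 (edgeR adjusted p = 0.000846), and Psat1 1.04 (edgeR adjusted p = 0.0325). Aldh1l2 (1.21, edgeR adjusted p = 0.263), Pycr1 (1.16, edgeR adjusted p = 0.097) and Aldh18a1 (1.20, edgeR adjusted p = 0.0684) were not called there. The test of the difference between the 2 comparisons called none of them. Double KO replicate 3 was the lowest of its group for Mthfd2, Phgdh, Asns, Trib3 and Atf5.

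Transfer RNA charging and amino acid uptake belong to the same programme. Of 20 cytosolic aminoacyl-tRNA synthetases 10 rose, 19 were positive, none fell and the median was 0.54 (0.39 without WT replicates 2 and 4). Iars, for isoleucine, was at 70.2, 60.3, 66.5 and 61.0 CPM in Clpp KO, against 38.4, 25.3, 40.7 and 29.4 CPM in WT (0.95 ± 0.14, edgeR adjusted p = 0.00166). The 4 Clpp KO values were above the 4 WT values. Gars (0.74 ± 0.11), Sars (0.77 ± 0.12), Mars (0.67 ± 0.11) and Nars (0.67 ± 0.10), for glycine, serine, methionine and asparagine, also rose and with Iars are stable. Eprs (0.85 ± 0.17), Cars (0.70 ± 0.13), Aars (0.66 ± 0.15), Yars (0.60 ± 0.13) and Lars (0.57 ± 0.13) rose but are not stable. Eprs lost its call without Clpp KO replicate 1 (edgeR adjusted p = 0.0622) and Cars without Clpp KO replicate 3 (edgeR adjusted p = 0.0522), while Aars and Lars lost it without any of the 4 Clpp KO replicates and Yars without those or WT replicate 2 (edgeR adjusted p between 0.0551 and 0.103 for these 3). With library totals alone as the scale the fold changes of Aars, Cars, Lars, Mars, Nars and Yars turned slightly negative, between −0.14 and −0.05, where the median of all genes was −0.79. The synthetases for histidine (Hars, 0.05), lysine (Kars, 0.07), glutamine (Qars, 0.14) and tryptophan (Wars, 0.09), the last also interferon-induced, were not called. None of 17 mitochondrial synthetases was called (median 0.12). In double KO against Fgf21 KO no cytosolic synthetase was called by edgeR, all 10 that rose in Clpp KO were positive there, between 0.18 and 0.57, and the median of the list was 0.25.

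Among 16 amino acid transporters Slc7a5, the light chain of the large neutral amino acid exchanger LAT1, rose. It was at 12.9, 13.2, 13.1 and 11.7 CPM in Clpp KO, against 3.35, 3.46, 2.88 and 6.37 CPM in WT (1.67 ± 0.23, edgeR adjusted p = 0.000952), with WT replicate 4 above the other WT values and no overlap. Its partner Slc3a2 (0.28, edgeR adjusted p = 0.32) and the cystine carrier Slc7a11 (1.20, edgeR adjusted p = 0.0726) were not called. Slc19a2, a thiamine carrier named after its value was seen, rose by 0.87 and is stable.

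The element to which ATF4 and C/EBP factors bind was searched as TGATGNAA. It was in the windows of 11 of 110 risen genes (10%), of none of 56 that fell and of 2.91% of the genes tested, and in 3.97% of all windows. Among risen cytosolic synthetases 4 of 6 with a window held it, as did 2 of 3 risen enzymes of asparagine and proline synthesis, 1 of 3 risen genes of the stress response list, none of 2 of serine synthesis and not Mthfd2, the single risen folate enzyme with a window. Among all tested members with a window, risen or not, it was in 5 of 12 cytosolic synthetases and 7 of 18 stress response genes. It was also in 3 of 11 enzymes of asparagine, proline and glutamate. Windows of Asns (chr6:7693160-7693459, − strand), Gars (chr6:55037751-55038050, + strand) and Trib3 (chr2:152344011-152344310, − strand) are shown with the matches in capitals, and that of Mthfd2 (chr6:83317555-83317854, − strand), among the largest rises, holds none of the 3 motifs.
Asns: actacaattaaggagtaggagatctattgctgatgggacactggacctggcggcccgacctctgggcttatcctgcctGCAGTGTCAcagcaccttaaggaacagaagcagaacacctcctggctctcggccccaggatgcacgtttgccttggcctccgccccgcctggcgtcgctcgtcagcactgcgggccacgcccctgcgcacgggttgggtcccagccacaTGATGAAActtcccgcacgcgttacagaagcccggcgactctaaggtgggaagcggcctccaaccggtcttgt
Gars: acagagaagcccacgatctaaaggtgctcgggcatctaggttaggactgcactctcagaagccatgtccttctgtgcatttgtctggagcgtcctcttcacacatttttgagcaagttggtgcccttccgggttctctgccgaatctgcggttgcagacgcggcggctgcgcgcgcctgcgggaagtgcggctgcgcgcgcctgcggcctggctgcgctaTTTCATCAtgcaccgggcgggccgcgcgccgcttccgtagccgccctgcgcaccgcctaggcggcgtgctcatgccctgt
Trib3: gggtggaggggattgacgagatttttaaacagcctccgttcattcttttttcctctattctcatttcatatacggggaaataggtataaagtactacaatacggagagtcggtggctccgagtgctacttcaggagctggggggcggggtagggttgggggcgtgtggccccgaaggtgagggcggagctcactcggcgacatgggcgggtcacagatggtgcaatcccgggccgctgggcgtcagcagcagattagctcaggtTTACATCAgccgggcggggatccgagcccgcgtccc
Mthfd2: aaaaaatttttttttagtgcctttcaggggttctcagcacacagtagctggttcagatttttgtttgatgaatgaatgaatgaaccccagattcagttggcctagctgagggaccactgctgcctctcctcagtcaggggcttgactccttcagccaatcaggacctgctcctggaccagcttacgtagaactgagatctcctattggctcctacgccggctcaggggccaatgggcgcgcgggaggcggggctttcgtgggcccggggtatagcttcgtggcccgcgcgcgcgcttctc
The element begins 23 bases before the start in Asns, 30 bases before it in Gars on the opposite strand, and 14 bases after it in Trib3 on the opposite strand. The earlier capitals in Asns are a match to the antioxidant response element described below. The absence of a match in Mthfd2 concerns these letters in this window.

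The mRNAs encoded in mitochondrial DNA were higher in Clpp KO, 11 of 13 with a call, against 1.08% of all genes tested. Together these mRNAs, which code for parts of complexes I, III, IV and V, took 56.6%, 57.6%, 60.0% and 57.9% of all counts in the Clpp KO libraries, against 39.1%, 25.5%, 39.4% and 28.9% in the WT libraries. The groups did not overlap, and WT replicates 2 and 4 were the lowest. Against WT replicates 1 and 3 alone the difference was 18.8 percentage points (two-sided exact permutation p = 0.0667, the minimum for 4 against 2), and with all 4 WT libraries it was 24.8 points (p = 0.0286). The median log2 fold change of the 13 was 1.54 with all WT libraries, 1.16 without WT replicates 2 and 4 and 1.47 in double KO against Fgf21 KO, where 10 were called. mt-Nd1 (chrM:2751-3707), a complex I subunit that shares no 31-base sequence with another entry, took 4.43%, 5.10%, 4.88% and 4.99% of counts in Clpp KO, against 2.81%, 1.86%, 2.80% and 2.08% in WT (log2 fold change 1.71 ± 0.24, edgeR adjusted p = 0.00098). mt-Co1, the catalytic subunit of complex IV, took 15.3% to 17.3% in Clpp KO and 5.34% to 11.1% in WT (1.62 ± 0.30).

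The 2 mitochondrial mRNAs without a call were mt-Nd5 and mt-Nd6. mt-Nd6 is the one mRNA of the set on the opposite strand of the mitochondrial genome (chrM:13552-14070, − strand). It took 0.619%, 0.778%, 0.703% and 0.704% of counts in Clpp KO, against 0.933%, 0.526%, 0.974% and 0.695% in WT, so the groups overlapped and the Clpp KO shares lay under WT replicates 1 and 3. Its log2 fold change was 0.51 ± 0.26 (edgeR adjusted p = 0.257), 0.11 without WT replicates 2 and 4 and −0.16 with library totals as the scale. mt-Nd5 took 1.55% to 1.91% in Clpp KO, against 1.498%, 0.528%, 1.65% and 0.565% in WT (1.41 ± 0.42, edgeR adjusted p = 0.0977). Of the 11 calls, mt-Nd4l (2.13 ± 0.44) kept its call without WT replicate 1 or 3 or Clpp KO replicate 4 and lost it without each other library (edgeR adjusted p between 0.0539 and 0.0692). mt-Atp8 (2.28 ± 0.49) lost it without WT replicate 4 or any Clpp KO replicate (between 0.063 and 0.0755), and mt-Cytb (1.17 ± 0.23) without WT replicate 4 or Clpp KO replicate 4 (0.0542 and 0.0507). The other 8 are stable. mt-Co2, mt-Atp6, mt-Co3, mt-Nd3 and mt-Nd4l share 98.1% to 100% of their 31-base sequences with nuclear copies, and counts may be split between them. The same holds in part for mt-Co1, with 63.9% shared and 45.2% in Gm13340, and for mt-Nd4, with 62.8% in Gm28439. Nuclear entries with much, little or no mitochondrial sequence also rose, named here after their values were seen. Gm13341 (1.69) has 48% of its 31-base sequences in mt-Co2, and its rise cannot be told apart from that of this mRNA. Gm20594 (1.62) has 10%, all of them in the ribosomal RNA gene mt-Rnr2. Cep295, a centriole protein gene, rose by 1.65 and Nudt14, a nucleoside sugar hydrolase gene, by 1.64, and 0.0243% and 0% of their 31-base sequences occur in mitochondrial genes.

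**Figure D4:**
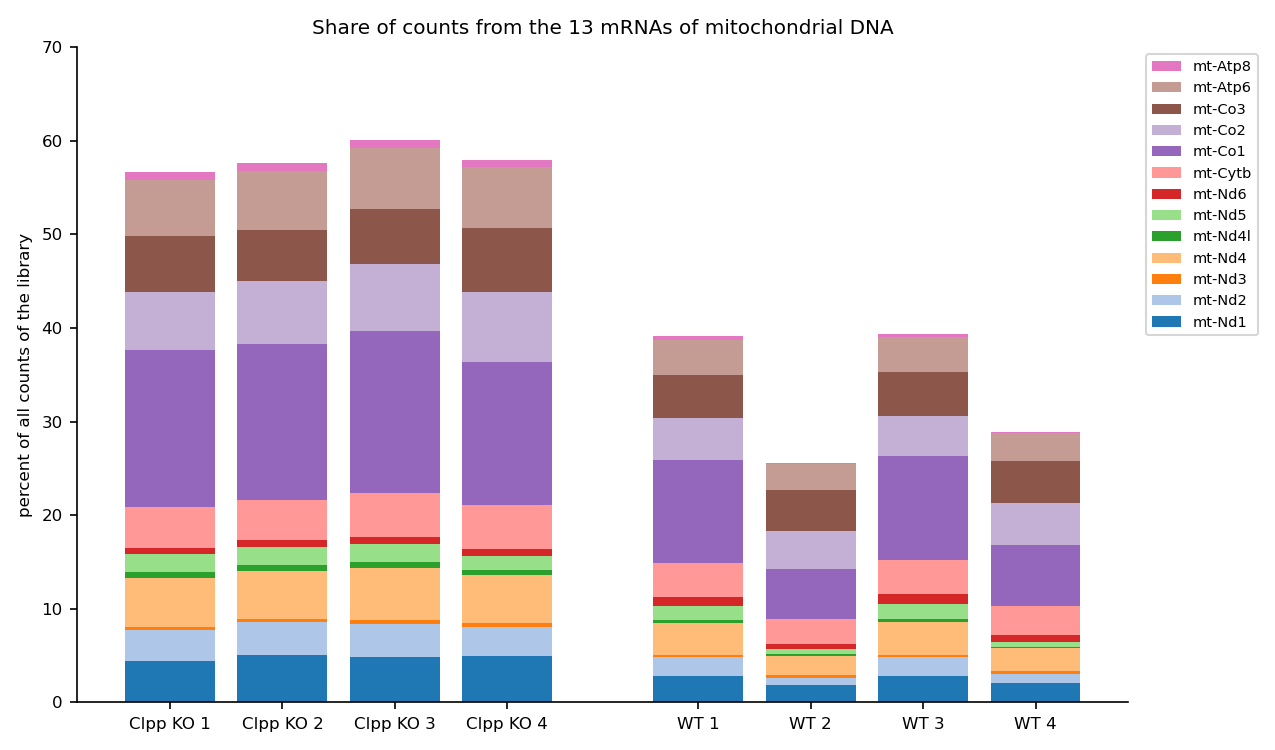
Percent of all counts of a library (vertical axis) taken by each of the 13 mRNAs encoded in mitochondrial DNA, stacked, for the 4 Clpp KO libraries and the 4 WT libraries. The stacks reach 56.6% to 60.0% in Clpp KO, 39.1% and 39.4% in WT replicates 1 and 3 and 25.5% and 28.9% in WT replicates 2 and 4.

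Nuclear genes for mitochondrial proteins were not called as groups. None of 36 nuclear complex I subunits (median −0.21), 34 subunits of complexes II to V (median −0.17), 79 mitochondrial ribosomal proteins (median −0.09) or 28 genes of mitochondrial DNA upkeep, transcription and translation (median 0.10) passed the test in edgeR. Of the complex I subunits 34 of 36 had a negative log2 fold change. Of the 36, 2 were lower without overlap, against 5.93% of all genes tested. Ndufa1 had the smallest p of these subunits (−0.48, edgeR adjusted p = 0.0785). Negative values were not particular to complex I, since 4 of 42 cytosolic ribosomal protein genes had a positive one (median −0.165). The partner of CLPP, Clpx, had 0.71 (edgeR adjusted p = 0.187), and the other matrix protease Lonp1 0.43 (edgeR adjusted p = 0.149). Of 19 mitochondrial proteases Clpp alone was called. The chaperones Hspd1 (0.49) and Hspa9 (0.61), marker genes of the mitochondrial unfolded protein response, were not called (edgeR adjusted p = 0.144 for each), nor was their partner Hspe1 (−0.12, edgeR adjusted p = 0.615). Genes of fatty acid oxidation (32 tested) and the citric acid cycle (22 tested) had none called, with medians of 0.37 and 0.26 with all WT libraries and 0.05 and −0.11 without WT replicates 2 and 4. Sarcomere (21), calcium handling (22), ion channel (22), glycolysis (22) and proliferation genes (16) had none called.

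**Figure D5:**
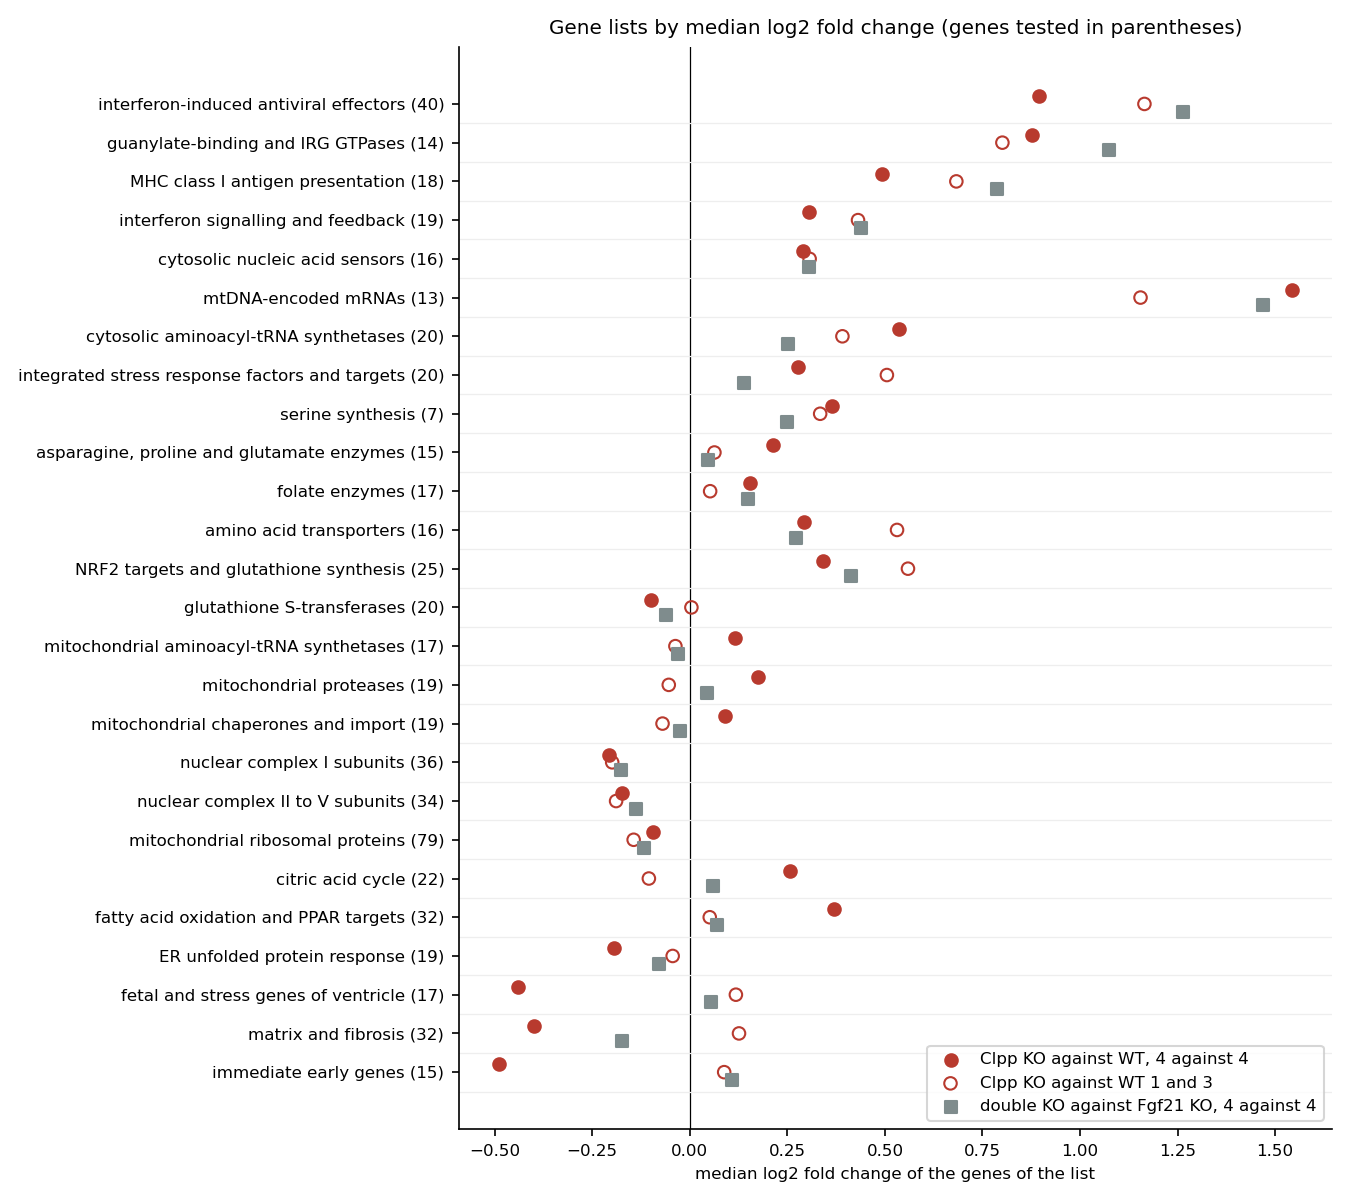
Median log2 fold change (horizontal axis) of 26 gene lists in Clpp KO against WT with all libraries (filled circles), in Clpp KO against WT replicates 1 and 3 (open circles) and in double KO against Fgf21 KO (squares). The interferon lists and the mitochondrial mRNAs lie to the right under all 3, while medians of the citric acid cycle, matrix, fetal and immediate early lists move towards or across 0 when WT replicates 2 and 4 are left out.

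Of 20 glutathione S-transferases, Gsta1, Gsta2 and Gsta4 of the alpha class rose, and the other 17, Gsta3 among them (0.22, edgeR adjusted p = 0.496), were not called. Gsta2 (chr9:78331018-78355788) was at 3.20, 3.01, 2.07 and 2.51 CPM in Clpp KO, against 0.183, 0.0151, 0.221 and 0.123 CPM in WT, the largest fold change among named genes (4.31 ± 0.46, edgeR adjusted p = 7.80e-05). The WT libraries were close to 0 and no value overlapped. Gsta1 rose by 3.15 ± 0.41 and Gsta4, which clears lipid peroxidation products, by 0.78 ± 0.14, and all 3 are stable. Gsta1 and Gsta2 share 92.9% and 60.7% of their 31-base sequences with other genes, mostly with each other and with Gm3776, which also rose (3.26), so their separate levels are uncertain. The 17 transferases without a call lay between −0.65 and 0.34. Of 25 targets of NRF2, the factor of the antioxidant response, 6 rose and none fell, with a median of 0.34 (0.56 without WT replicates 2 and 4). Gclm, the modifier subunit of glutamate-cysteine ligase, was at 28.6, 26.5, 29.7 and 29.1 CPM in Clpp KO, against 8.69, 7.46, 9.26 and 9.14 CPM in WT (1.72 ± 0.36, edgeR adjusted p = 0.0253). These 2 groups were tight and far apart. The spread over all 16 libraries entered the test, and among them Fgf21 KO replicate 2 held 26.4 CPM and double KO replicate 3 held 54.1 CPM. Sqstm1, the autophagy receptor p62, showed the same pattern, at 427.8, 453.7, 451.5 and 497.0 CPM in Clpp KO, against 210.1, 160.1, 204.9 and 221.6 CPM in WT (1.20 ± 0.26, edgeR adjusted p = 0.0287), with Fgf21 KO replicate 2 at 486.3 CPM. The part of these Fgf21 KO and double KO libraries in the adjusted p of Gclm and Sqstm1 was not tested separately.

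The remaining risen NRF2 targets were Gclc (0.71 ± 0.16), the catalytic partner of Gclm, the thioredoxin reductase Txnrd1 (0.80 ± 0.16), the malic enzyme Me1 (0.81 ± 0.20) and Osgin1 (1.26 ± 0.27). None of the 6 in that list is stable. Gclm, Gclc and Sqstm1 kept their calls without WT replicate 1 or 3 and lost them without each other library (edgeR adjusted p between 0.0572 and 0.095), Txnrd1 lost its call without Clpp KO replicate 2 (edgeR adjusted p = 0.0574), Osgin1 without WT replicate 4 or Clpp KO replicate 2, 3 or 4 (between 0.0594 and 0.0803) and Me1 without WT replicate 4 or any Clpp KO replicate (between 0.0854 and 0.151). In double KO against Fgf21 KO none of the 25 was called by edgeR, and their median was 0.41. The haem oxygenase Hmox1 (−0.76) and the quinone reductase Nqo1 (1.14) were not called (edgeR adjusted p = 0.59 and 0.0786). The iron exporter Slc40a1 rose by 1.46 ± 0.28 and lost its call without WT replicate 4 (edgeR adjusted p = 0.0582) and without WT replicates 2 and 4 (0.17). Bach1, a repressor of NRF2 targets, and Mafg, a partner of both, rose by 0.87 and 0.53, and of these 2 genes, named after their values were seen, Mafg is stable. The antioxidant response element, searched as TGACNNNGC, was in 20.9% of risen genes with a window, in 8.93% of those that fell and in 16.5% of the genes tested, and in 12.4% of all windows. It lay in 3 of 5 risen NRF2 targets with a window and in 9 of 20 tested ones with a window, risen or not. That of Gclm (chr3:122245307-122245606, + strand) begins 134 bases before the start and is in capitals on the opposite strand.
Gclm: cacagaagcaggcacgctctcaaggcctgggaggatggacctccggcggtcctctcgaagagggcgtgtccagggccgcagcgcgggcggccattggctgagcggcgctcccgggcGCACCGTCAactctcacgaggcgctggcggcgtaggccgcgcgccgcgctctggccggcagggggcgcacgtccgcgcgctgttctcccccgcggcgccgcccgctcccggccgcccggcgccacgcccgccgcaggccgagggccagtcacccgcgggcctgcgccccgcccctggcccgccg

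Of the 84 genes that fell 5 are stable, against 79 of the 165 that rose. Among the 5 that fell are Clpp, Dct, Nab1 and Casc1, of which Nab1 and Casc1 were named after their values were seen. Dct, an enzyme of melanin synthesis made by melanocytes of the heart, was at 1.19, 1.02, 1.19 and 1.07 CPM in Clpp KO, against 2.22, 4.26, 2.49 and 5.16 CPM in WT (−1.66 ± 0.24, edgeR adjusted p = 0.00157). WT replicates 2 and 4 were the highest, and against WT replicates 1 and 3 alone the log2 fold change was −1.07 and still called. Of 5 tested melanocyte markers Dct alone was called, and 2 were positive. The median of that list was −1.15, and −0.09 without WT replicates 2 and 4. Summed melanocyte markers overlapped, at 25 to 31.3 CPM in Clpp KO and 26.2 to 37.7 CPM in WT. Nab1, a corepressor of EGR factors, fell by 0.75, and was at 0.07 in double KO against Fgf21 KO. The 5 genes lower in both comparisons were Clpp, Rflnb, Camk2b, Vwa1 and Capn12, and they too were named after their values were seen. Vwa1, a matrix protein of basement membranes, was at 12.2, 11.9, 11.01 and 12.4 CPM in Clpp KO, against 20.0, 20.9, 20.3 and 18.9 CPM in WT, and Camk2b, a calmodulin kinase, at 7.93, 7.02, 5.52 and 7.16 CPM in Clpp KO, against 10.4, 10.1, 10.8 and 11.7 CPM in WT. Neither Vwa1 nor Camk2b is stable.

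Of 6 neuron markers 2 fell, Stmn2 and Gfra2. Stmn2, a microtubule regulator, was at 2.17, 1.63, 2.72 and 1.603 CPM in Clpp KO, against 3.99, 5.89, 3.90 and 9.90 CPM in WT (−1.54 ± 0.29, edgeR adjusted p = 0.00992), and Gfra2, a receptor for neurturin, fell by 1.41 ± 0.33. Outside that list the synaptic vesicle protein Syp (−1.28 ± 0.29) and the synuclein Sncg (−1.11 ± 0.25) fell too. In each of these 4 genes the highest value was in WT replicate 4. Summed neuron markers were 12.7 to 14.8 CPM in Clpp KO, 14.8 and 14.03 CPM in WT replicates 1 and 3, and 29.1 and 59.98 CPM in WT replicates 2 and 4, and their part in these falls was not tested. Without WT replicates 2 and 4 none of the 4 genes was called (Stmn2 −0.95, edgeR adjusted p = 0.0904; Syp −0.62, 0.261; Sncg −0.54, 0.378; Gfra2 −0.77, 0.401). Syp and Gfra2 also lost their calls without WT replicate 2 or 4 or any Clpp KO replicate, and Sncg without those other than Clpp KO replicate 4 (edgeR adjusted p between 0.0543 and 0.153). Edn3, endothelin 3, was at 0.732, 0.459, 0.632 and 0.503 CPM in Clpp KO, against 1.67, 1.03, 1.69 and 4.94 CPM in WT (−1.99 ± 0.47, edgeR adjusted p = 0.0442), and was not called without WT replicate 4 (0.147) or without any Clpp KO replicate (0.103 to 0.132).

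Alas1, the first enzyme of haem synthesis in tissues other than the red cell lineage, was at 46.0, 37.7, 36.4 and 38.7 CPM in Clpp KO, against 131.9, 51.1, 127.7 and 92.0 CPM in WT (−1.34 ± 0.32, edgeR adjusted p = 0.0484). WT replicate 2 came close to the Clpp KO values, and without WT replicates 2 and 4 the log2 fold change was −1.71 (edgeR adjusted p = 0.0226). Its call held without WT replicate 2 and ended without any other single library (edgeR adjusted p between 0.0502 and 0.145). The other 15 genes of haem synthesis and breakdown were not called. All 8 red blood cell markers were lower in every Clpp KO library than in any WT library, with log2 fold changes from −2.55 to −1.59. None was called (edgeR adjusted p between 0.212 and 0.269). In double KO against Fgf21 KO their median was 1.09, but that direction came from a single library. Their sums were 637.5, 749.5, 1863 and 10980 CPM in double KO, against 3056, 2284, 1513 and 1281 CPM in Fgf21 KO. The groups overlapped, and double KO replicate 4 alone lay above all Fgf21 KO libraries. The neutrophil genes S100a8 (−2.78 ± 0.51, edgeR adjusted p = 0.00896) and S100a9 (−2.60 ± 0.62, edgeR adjusted p = 0.0464) fell from low levels, S100a8 being at 0.0314 to 0.137 CPM in Clpp KO and at 0.375 to 0.785 CPM in WT. Neither was called without WT replicates 2 and 4 (edgeR adjusted p = 0.102 and 0.298), and S100a9 kept its call without WT replicate 1 or 3 or Clpp KO replicate 1 and lost it without each other library (0.096 to 0.148). Among vascular markers Pecam1, an endothelial adhesion protein, fell by 0.56 ± 0.12 and the pericyte proteoglycan Cspg4 by 0.75 ± 0.18, each losing its call without WT replicate 2 or 4 or any Clpp KO replicate (edgeR adjusted p between 0.0542 and 0.147). These 2 genes belong to the endothelial and smooth muscle markers whose sums are given above.

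A few strong rises belong to none of these groups. Vmn2r3 (chr3:64257215-64289709), annotated as a vomeronasal receptor, was at 4.64, 3.34, 3.69 and 5.31 CPM in Clpp KO, against 0.275, 0.453, 0.272 and 0.287 CPM in WT (3.70 ± 0.30, edgeR adjusted p = 5.82e-06). WT replicate 2 was the highest of the WT libraries and still far under the Clpp KO values, and the rise was present in double KO against Fgf21 KO (1.99, edgeR adjusted p = 0.00217). Of its 31-base sequences 6.52% occur in other entries. Cdh4 (chr2:179442431-179899373), which encodes R-cadherin, was at 12.2, 13.3, 13.5 and 13.1 CPM in Clpp KO, against 2.44, 0.604, 2.40 and 0.820 CPM in WT (3.06 ± 0.36, edgeR adjusted p = 0.000289). Here WT replicates 2 and 4 were the lowest, and the log2 fold change without them was 2.43. Tfcp2l1, a transcription factor named after its value was seen, rose by 2.03 and is stable, as are Vmn2r3 and Cdh4. The ERK phosphatase Dusp4 (2.15 ± 0.44), the ETS factor Etv5 (0.88 ± 0.19), the clock repressor Nr1d2 (0.79 ± 0.15), the kinase Ulk1 (0.57 ± 0.14) and the survival factor Bcl2 (0.58 ± 0.10) were the called members of 4 further lists. Of these Bcl2 is stable and the others were not called without WT replicates 2 and 4 (edgeR adjusted p between 0.109 and 0.217). Single libraries also ended calls, for Dusp4 WT replicate 2 or 4 or Clpp KO replicate 2 or 4, for Etv5 WT replicate 2 or Clpp KO replicate 1, 2 or 4, and for Ulk1 WT replicate 2 or 4 or any Clpp KO replicate (edgeR adjusted p between 0.0546 and 0.138).

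Of 17 fetal and stress genes of the ventricle Ces1d, a lipid hydrolase, fell (−0.61 ± 0.14, edgeR adjusted p = 0.0291), called without WT replicate 2, 3 or 4 but not without WT replicate 1 or any Clpp KO replicate (0.0514 to 0.108). Myh7 (0.16), Nppb (−1.06) and Acta1 (1.43) were not called (edgeR adjusted p = 0.796, 0.204 and 0.0642). None of 32 matrix and fibrosis genes was called, with a median of −0.40 and of 0.13 without WT replicates 2 and 4, where fibroblast marker sums were 1310 to 2020 CPM in Clpp KO and 1450 CPM in each WT library left, against 3790 and 2520 CPM in WT replicates 2 and 4. Immediate early genes had none of 15 called (median −0.49, and 0.09 without those replicates), and genes of the unfolded protein response of the endoplasmic reticulum none of 19 (median −0.19).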

How the data were processed

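RNA of mouse hearts was sequenced as stranded mRNA libraries, 4 per genotype and 16 in all, on an Illumina NovaSeq instrument, per the labels. The table holds whole-number counts per gene as deposited by the authors. The submitters' processing notes name fastp 0.21.0, kallisto 0.46.1, edgeR 3.32.1, DESeq2 1.30.1, R 4.0.3 and the build GRCm38.p6. How estimates became whole counts and whether strand was used are not given in the sources used here.

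All 16 libraries were fitted together in edgeR 4.0.16 (R 4.3.3) by the robust quasi-likelihood test, with 1 coefficient per genotype, 12 residual degrees of freedom and TMM scaling (factors 0.674 to 1.83). The low-count filter was that of edgeR (filterByExpr, set to 10 counts in a library of median size and 15 in total; of 36499 entries 24625 had any count and 15255 passed), and p-values were adjusted by Benjamini-Hochberg over all of them at 0.05. The contrasts were Clpp KO minus WT, double KO minus Fgf21 KO, and their difference. Values measured once per library were set against each other by two-sided exact permutation tests. Alternatives were other scalings and filters, DESeq2 1.42.0, a replicate block, an atrial covariate and left-out libraries. Library totals of 36260545 counts to 51820727 counts set the precision of low genes. Overlap in sequence was counted as the share of a gene's 31-base stretches found in other transcripts of GENCODE M21, in which 550 identifiers had no entry.

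Gene lists, markers and members were chosen with earlier results of these data known, so they are not independent evidence. The genes named were Clpp, Fgf21, the 15 called genes of largest rise and the 15 of largest fall with a symbol of their own, a mean of at least 1 CPM and no overlap, the 10 of smallest p, all called list members, and the 2 of smallest p in a list without a call. A part of these is described, and a few are not reported here. Uncalled list members and other genes named beside them were picked after their values were seen.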

Additional observations from a re-analysis of the deposited data

Results flagged for a closer look

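A single library stood apart from the other 3 of its group in 10 of 108 groups checked (Dixon's test at its 95% level), and chance flags about 1 in 20 groups. Clpp KO replicate 1 was high for Ifit1 at 27 CPM (others 17.3 to 18.5), for Ifit3b at 20 CPM (12.3 to 12.8) and for Gsta1 at 11.4 CPM (7.81 to 8.16). Clpp KO replicate 2 was high for Asns at 23.6 CPM (19 to 19.2) and for summed B cell markers at 10.1 CPM (4.3 to 5.25). Clpp KO replicate 4 was high for Sncg at 4.52 CPM (3.06 to 3.14). WT replicate 2 was high for Vmn2r3 at 0.453 CPM (0.272 to 0.287) and for Ifit3b at 3.79 CPM (2.26 to 2.4). WT replicate 4 was high for Edn3 at 4.94 CPM (1.03 to 1.69) and for summed brown adipocyte markers at 392 CPM (238 to 261).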

How the results depend on the processing

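The 249 calls in Clpp KO against WT became 11933 with library totals alone, 841 with DESeq2, 159 without WT replicates 2 and 4, 562 with WT replicates 1 and 3 summed, 1066 with an atrial covariate and 151 with the 8 libraries fitted alone, and 114 to 949 when a single library was left out. RLE size factors, TMM without mitochondrial genes and both other filters kept the count within 1.5 times. In double KO against Fgf21 KO the 136 calls became 10858 with library totals alone and 209 with DESeq2, and the 93 shared calls became 9917 and 157. The test of the difference called 3 genes with DESeq2 and 1 with the atrial covariate. The cause of these moves was not tested.

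The replicate numbers did not pair the samples (correlations between same-numbered libraries from −0.129 to 0.196 for Clpp KO and WT, and from −0.192 to −0.0471 for double KO and Fgf21 KO). With the replicate block 146 genes were called in Clpp KO against WT.

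The difference in mitochondrial mRNA share was 18.78 percentage points without WT replicates 2 and 4 and 22.24 to 26.86 with a single library left out. The difference in Fgf21 was 0.2933 CPM without WT replicates 2 and 4 and 0.2629 to 0.3984 CPM with a single library left out. With library totals alone the log2 fold change turned negative for Parp12 (−0.2708), Parp14 (−0.0859), Aars (−0.0553), Cars (−0.049), Lars (−0.1431), Mars (−0.055), Nars (−0.0564), Yars (−0.1425), Gclc (−0.0516), Ulk1 (−0.1455) and Bcl2 (−0.1836), where the median of all genes was −0.79. Depth limits low genes such as Fgf21, with 0 to 28 counts per library.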
